A study of Mus musculus with 8 samples.

Results

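The methionine cycle enzymes described here are 10 genes, Mat1a, Mat2a, Mat2b, Gnmt, Ahcy, Ahcyl1, Ahcyl2, Bhmt, Bhmt2 and Mtr, taken by symbol from a table of counts for 33212 genes. All 10 were found once in the table and all 10 had enough counts to be tested. The table holds liver RNA-seq of 4 Nnmt KO mice and 4 control mice, which were male C57BL/6 mice kept for 8 weeks on the MCD diet, a diet that lacks methionine and choline. Nnmt KO mice were Alb-Cre::Nnmt flox/flox, in which the albumin promoter drives Cre in hepatocytes, so that the other cells of the liver keep Nnmt. Control mice were Nnmt flox/flox by the study's text and are labelled WT, and no group on a diet with methionine and choline belongs to this comparison. The age of these mice is not given in the sources used here. The comparison asks what loss of Nnmt in hepatocytes changes in a liver damaged by this diet. Nnmt methylates nicotinamide and takes the methyl group from S-adenosylmethionine, the product of the first step of the methionine cycle.

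In this cycle, methionine adenosyltransferases join methionine to ATP and make S-adenosylmethionine, the methyl donor of the cell. Methyltransferases turn it into S-adenosylhomocysteine, which a hydrolase splits into adenosine and homocysteine, and homocysteine is methylated back to methionine with a methyl group from betaine or from folate. The liver is the main site of this cycle, and hepatocytes are known for high Mat1a, Gnmt and Bhmt. The MCD diet removes methionine itself and also choline, from which betaine is made.

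Promoter sequences were matched for 9 members, all but Mat1a, in RefSeq's table for GRCm38.p6. The 250 bases before the first start held between 5 CG dinucleotides (Bhmt) and 29 (Mat2a), against a median of 6 over the promoters of 27025 genes. The members between were Gnmt with 6, Ahcy with 9, Mat2b with 13, Ahcyl1 with 16, Bhmt2 with 20, Mtr with 20 and Ahcyl2 with 25. Of the 250 bases, 203 for Bhmt, 125 for Ahcyl2 and 92 for Mat2b lie within exons of the same gene annotated by GENCODE. The counts of these genes thus include exon sequence. Of all promoters, 50.5% held at least as many as Gnmt, 40.7% as many as Ahcy, 17.7% as many as Mtr and 6.43% as many as Mat2a. The 4 promoters shown here set Gnmt and Ahcy, which are abundant in these livers, beside Mat2a and Mtr, which are less so. They are written 5′ to 3′ on the gene's strand, with each CG in capitals, and lie at chr17:46729166-46729415 (Gnmt), chr2:155074498-155074747 (Ahcy), chr6:72439557-72439806 (Mat2a) and chr13:12258114-12258363 (Mtr), all on the minus strand.
Gnmt: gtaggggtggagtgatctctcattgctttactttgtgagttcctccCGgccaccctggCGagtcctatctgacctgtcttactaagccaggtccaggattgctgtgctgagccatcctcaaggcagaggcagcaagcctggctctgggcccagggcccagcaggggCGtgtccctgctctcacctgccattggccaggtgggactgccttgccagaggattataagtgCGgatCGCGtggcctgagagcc
Ahcy: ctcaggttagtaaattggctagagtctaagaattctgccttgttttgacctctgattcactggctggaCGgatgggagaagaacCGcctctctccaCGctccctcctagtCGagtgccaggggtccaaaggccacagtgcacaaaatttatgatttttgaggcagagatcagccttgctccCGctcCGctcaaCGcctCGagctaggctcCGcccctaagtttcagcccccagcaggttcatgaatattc
Mat2a: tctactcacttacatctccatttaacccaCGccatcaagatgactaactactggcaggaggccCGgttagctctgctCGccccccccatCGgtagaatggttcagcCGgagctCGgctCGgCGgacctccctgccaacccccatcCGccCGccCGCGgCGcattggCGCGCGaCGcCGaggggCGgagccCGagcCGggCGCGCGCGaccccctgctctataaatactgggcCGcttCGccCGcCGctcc
Mtr: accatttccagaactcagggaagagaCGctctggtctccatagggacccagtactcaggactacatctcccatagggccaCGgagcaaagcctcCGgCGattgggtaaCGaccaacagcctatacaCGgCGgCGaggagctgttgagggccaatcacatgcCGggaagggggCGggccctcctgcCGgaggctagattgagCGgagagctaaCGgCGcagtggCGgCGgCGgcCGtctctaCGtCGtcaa
These are reference sequences and no mark or factor was measured on them here.

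Total counts ran from 75020072 to 87934362 per library in Nnmt KO mice and from 79043675 to 87056991 in control mice, and no library was a copy of another. Levels are given in CPM, counts scaled to the library total after TMM normalization, for libraries lettered a to d within a genotype. The KO and control means of Nnmt were 57.1 ± 23.1 and 139 ± 60.5 CPM (SD, n = 4), which puts the KO mean at 41.2% of the control mean (log2 fold change -1.28, standard error 0.33, adjusted p = 0.123 in edgeR's quasi-likelihood test). Its highest KO library (83.0 CPM) and its lowest control library (84.9 CPM) nearly met. The 8 hepatocyte markers were all found, with a summed level of 70647 to 120734 CPM in Nnmt KO mice and 90420 to 127874 CPM in control mice. Library a of the Nnmt KO mice stood apart, with the lowest hepatocyte sum of all 8 livers and a TMM factor of 1.21, against 0.876 to 1.06 in the other libraries. The p-values below weigh the difference between the genotypes against the spread between these livers.

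None of the 10 members passed an adjusted p of 0.05 in edgeR's quasi-likelihood test, which called 0.32% of the 15291 tested genes. DESeq2 also called 0 of the 10, against 3.46% of the genes it tested. At an unadjusted p under 0.05, edgeR gave 1 member (Ahcyl2) and DESeq2 gave 2 (Ahcyl2 and Gnmt), where the shares over all tested genes were 12.6% for edgeR and 14.2% for DESeq2. Ahcyl2 was also the only member without overlap between the livers of both genotypes, 1 of 10 where 8.16% of all tested genes had none (3.34% higher and 4.81% lower in Nnmt KO mice). By the sign of the log2 fold change 4 members lay above 0 and 6 below (47.7% of all tested genes lay below), and their median was -0.02, beside 0.02 over all tested genes.

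**Figure D1:**
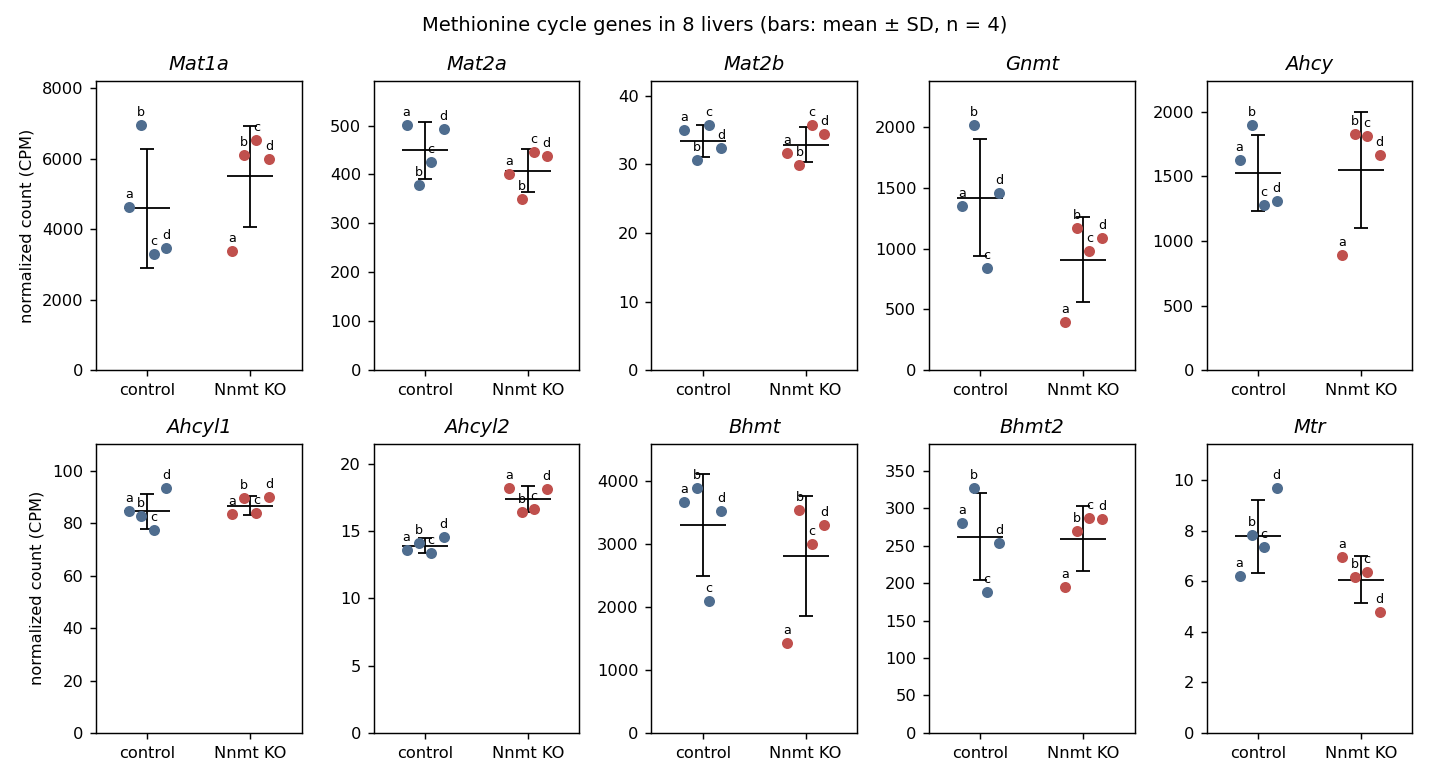
Normalized level of the 10 members (CPM, y axis from 0, 1 panel per gene) in the 4 control and 4 Nnmt KO libraries, with letters naming the libraries and bars giving mean ± SD. Ahcyl2 is the 1 gene in which every KO point (16.4 to 18.2 CPM) lies above every control point (13.3 to 14.6 CPM), and Gnmt, Ahcy and Bhmt have their lowest point in KO library a.

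None of the 3 genes of S-adenosylmethionine synthesis passed the test. Mat1a (ENSMUSG00000037798, plus strand of chromosome 14, 41105035 to 41124412 in GENCODE's M21 annotation of GRCm38) encodes the catalytic subunit of the adenosyltransferases of the adult liver. Its level was 3371, 6104, 6547 and 5995 CPM in KO libraries a to d and 4637, 6959, 3305 and 3480 CPM in control libraries a to d. Both genotypes thus held low and high livers, with KO a and control c the lowest and control b the highest, and the groups overlapped over almost their whole range. The log2 fold change was 0.26 with a 95% interval from -0.34 to 0.86 (adjusted p = 0.735), and it reached 0.54 without control b.

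Mat2a (ENSMUSG00000053907, minus strand of chromosome 6, 72432799 to 72439558) encodes the catalytic subunit found in most other tissues. It stood at 400, 349, 446 and 437 CPM in the KO libraries and at 501, 379, 425 and 492 CPM in the control libraries. The lowest value was in a KO liver and the highest in a control liver, with overlap between, and the log2 fold change was -0.14 (95% interval -0.44 to 0.16, adjusted p = 0.710). Mat2b (ENSMUSG00000042032, minus strand of chromosome 11, 40679314 to 40695203) encodes the regulatory partner of the Mat2a product. It had 32.9 ± 2.61 CPM in Nnmt KO mice and 33.4 ± 2.32 CPM in control mice (SD, n = 4). Its interval, from -0.24 to 0.20 on the log2 scale, was among the narrowest of the 10.

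Gnmt (ENSMUSG00000002769, minus strand of chromosome 17, 46725664 to 46729168) encodes glycine N-methyltransferase, which uses S-adenosylmethionine to make sarcosine and is a main consumer of it in liver. It had the largest log2 fold change in size of the 10. KO libraries a to d held 394, 1171, 982 and 1092 CPM, and control libraries a to d held 1355, 2018, 843 and 1460 CPM. In 3 of the 4 control livers Gnmt was above every KO liver, and control c lay among the KO livers. Its mean was 910 ± 352 CPM in Nnmt KO mice and 1419 ± 482 CPM in control mice (SD, n = 4), or 64.1% of control. The log2 fold change was -0.64 (standard error 0.33, 95% interval -1.37 to 0.08) and did not pass the test (adjusted p = 0.450). With 1 library left out it ran from -0.82 (without control c, where the genotypes did not overlap, as for 14.3% of all tested genes) to -0.39 (without KO a).

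S-adenosylhomocysteine is split by the product of Ahcy (ENSMUSG00000027597, minus strand of chromosome 2, 155059310 to 155074497), the only known hydrolase of this step. Ahcy had 890, 1825, 1812 and 1667 CPM in the KO libraries and 1627, 1895, 1279 and 1305 CPM in the control libraries. KO a lay far below the other 7 livers, which shared one range. The log2 fold change was 0.02 (95% interval -0.49 to 0.53, adjusted p = 0.979), and it changed sign with the library left out, from -0.07 to 0.21. Ahcyl1 (ENSMUSG00000027893, minus strand of chromosome 3, 107663118 to 107696560) encodes a relative of the hydrolase that binds the IP3 receptor. Its levels spanned 83.5 to 89.8 CPM in Nnmt KO mice and 77.6 to 93.5 CPM in control mice, so the KO livers lay inside the control range (log2 fold change 0.04, 95% interval -0.18 to 0.25).

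Ahcyl2 (ENSMUSG00000029772, plus strand of chromosome 6, 29768011 to 29912310) encodes the closest relative of the Ahcyl1 product and, like it, is not known as a working hydrolase. It held 18.2, 16.4, 16.6 and 18.2 CPM in KO a to d and 13.6, 14.1, 13.3 and 14.6 CPM in control libraries a to d. All 4 KO livers were above all 4 control livers, and the gap between the closest pair was wider than the SD within either genotype (0.956 CPM in KO and 0.560 CPM in control). The mean in Nnmt KO mice was 125% of the control mean, which is 0.32 on the log2 scale (standard error 0.10, 95% interval 0.10 to 0.54). This did not pass the test over all genes (adjusted p = 0.211 in edgeR's test and 0.0503 in DESeq2's). The difference stayed between 0.30 and 0.34 whichever library was left out, and the adjusted p lay between 0.0503 and 0.490 over all alternatives. In bulk liver, fewer cells of a type and less RNA per cell cannot be told apart. Beside this, the summed level of 8 stellate cell and fibroblast markers was 457 to 827 CPM in Nnmt KO and 352 to 524 CPM in control mice, that of 6 cholangiocyte markers 89.4 to 279 and 50.3 to 167 CPM, and that of 7 lymphocyte markers 4.55 to 6.13 and 3.12 to 3.83 CPM. Only the lymphocyte sums, which were low, did not overlap between the genotypes. The sums for macrophages (524 to 699 and 354 to 673 CPM), endothelial cells (191 to 219 and 149 to 288 CPM) and neutrophils (5.10 to 15.6 and 5.56 to 14.4 CPM) overlapped as well. The part of any of these cells in the Ahcyl2 values was not tested.

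**Figure D2:**
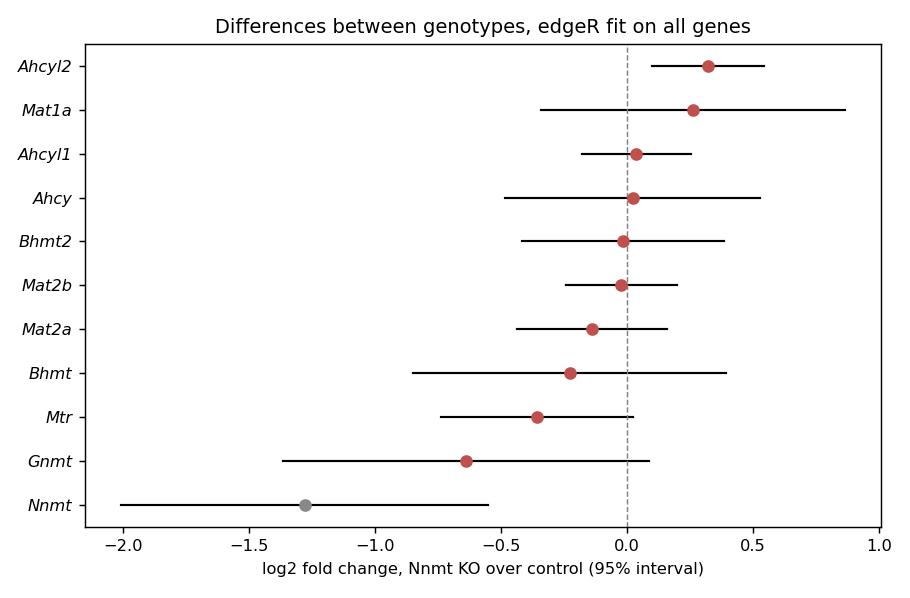
Log2 fold change between Nnmt KO and control mice (x axis, points) with its 95% interval (lines) for the 10 members (red) and the targeted gene Nnmt (grey), from edgeR's fit over all genes. Among the members, the interval of Ahcyl2 (0.10 to 0.54) alone leaves out 0, and those of Mtr (-0.74 to 0.02) and Gnmt (-1.37 to 0.08) reach just across it.

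Homocysteine is methylated back to methionine along the betaine route by the product of Bhmt and along the folate route by that of Mtr. The product of Bhmt2 also methylates homocysteine, with S-methylmethionine as the donor. All 3 genes had log2 fold changes below 0, none past the test. Bhmt (ENSMUSG00000074768, minus strand of chromosome 13, 93616675 to 93637961) encodes the betaine-homocysteine methyltransferase, and stood at 1420, 3534, 2994 and 3302 CPM in KO libraries a to d and at 3662, 3890, 2098 and 3529 CPM in control libraries a to d. One liver in each genotype, KO a and control c, was well below the other 6. The log2 fold change was -0.23 (95% interval -0.85 to 0.39, adjusted p = 0.778).

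Bhmt2 (ENSMUSG00000042118, minus strand of chromosome 13, 93655720 to 93674302) encodes a neighbouring relative that takes its methyl group from S-methylmethionine. Its range was 195 to 287 CPM in Nnmt KO mice and 188 to 327 CPM in control mice. The same 2 livers, KO a and control c, were its lowest, and the KO range lay inside the control range (log2 fold change -0.02, 95% interval -0.42 to 0.38). Reads of Bhmt and Bhmt2, which are similar in sequence, could have been assigned differently by another counting method.

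Mtr (ENSMUSG00000021311, minus strand of chromosome 13, 12182712 to 12258113) encodes methionine synthase, which carries a folate methyl group to homocysteine on cobalamin. It was the member with the fewest reads, between 343 and 816 counts per library. Its level was 6.97, 6.17, 6.36 and 4.78 CPM in the KO libraries and 6.22, 7.83, 7.37 and 9.70 CPM in the control libraries. Only control a lay within the KO range, and KO d was the lowest of the 8. The log2 fold change was -0.36 (standard error 0.17, 95% interval -0.74 to 0.02, adjusted p = 0.425), and without control a the genotypes did not overlap, as for 9.57% of all tested genes.

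To set genes beside each other, CPM was divided by the kilobases of each gene's merged exons. In control mice the order of these levels ran from Mat1a (1325 ± 485 CPM per kb) and Gnmt (1176 ± 400) through Bhmt (572 ± 141) and Ahcy (544 ± 104) to Bhmt2 (106 ± 23.6) and Mat2a (100.2 ± 12.9). Ahcyl1 (12.7 ± 0.995 CPM per kb), Mat2b (6.68 ± 0.464), Mtr (0.913 ± 0.170) and Ahcyl2 (0.762 ± 0.031) followed (all SD, n = 4). The ranges of the 4 livers overlapped between Mat1a and Gnmt, Bhmt and Ahcy, Bhmt2 and Mat2a, and Mtr and Ahcyl2, so the order within each of these pairs is not set. The RNA of Bhmt thus stood above that of Mtr by a wide margin, and the RNA of Mat1a above that of Mat2a, in every liver. Amounts and activities of the enzymes were not measured here.

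Among Nnmt KO mice Mat1a (1587 ± 416 CPM per kb) lay above Gnmt (754 ± 292), but the lowest Mat1a value (972 CPM per kb) only just cleared the highest Gnmt value (971), and with the longest transcript the 2 genes overlapped in KO as in control mice. Ahcyl2 (0.951 ± 0.052 CPM per kb) lay above Mtr (0.712 ± 0.108) without overlap, which is the other way round from the order of their means in control mice. With the length of the longest transcript, the mean of Gnmt (1371 CPM per kb) came before that of Mat1a in control mice, Mat2a (133) came before Bhmt2, and Ahcyl2 (2.70) came before Mtr (0.938) in both genotypes. The merged exons of the 23 annotated transcripts of Ahcyl2 cover 18255 bases and its longest transcript 5155, so its level depends most on the length used.

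**Figure D3:**
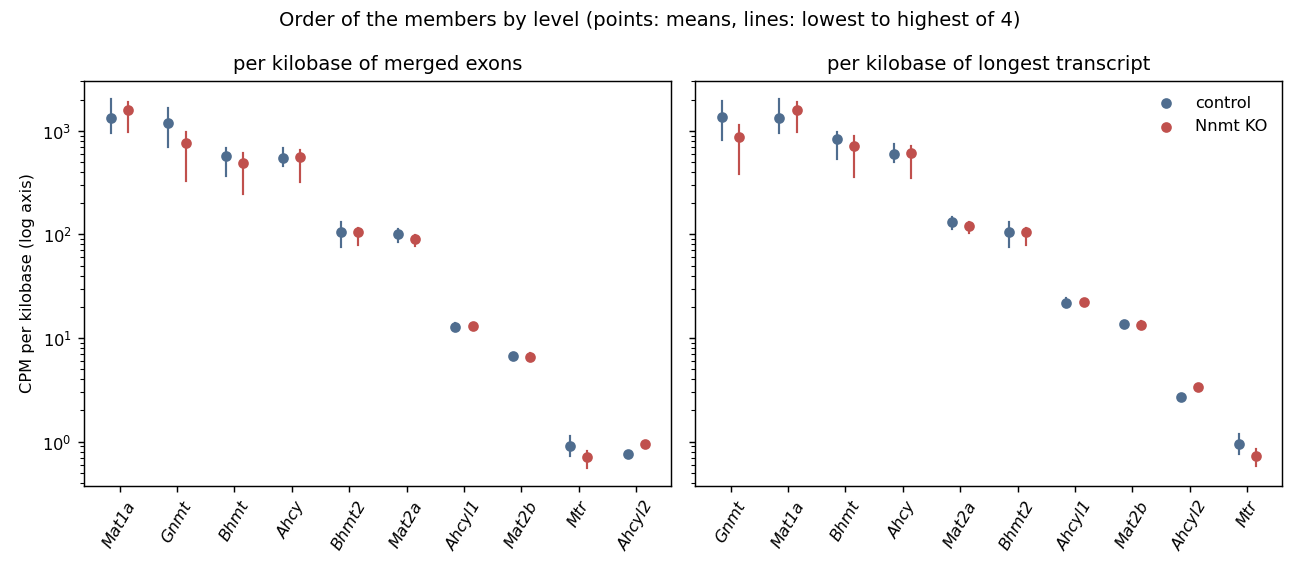
Level per kilobase (CPM per kb, log axis) of the 10 members in control (blue) and Nnmt KO mice (red), with merged exons on the left and the longest transcript on the right. Points are means of 4 livers and lines run from the lowest to the highest. From Mat1a (1325 CPM per kb of merged exons in control mice) to Ahcyl2 (0.762) the members fall into genes with abundant RNA (Mat1a, Gnmt, Bhmt, Ahcy), Bhmt2 and Mat2a, and the 4 lower genes.

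Ratios between members within a library do not depend on how libraries are scaled. The count ratio of Gnmt to Mat1a, the main methyltransferase to the main source of its substrate, was 0.117, 0.192, 0.150 and 0.182 in KO a to d and 0.292, 0.290, 0.255 and 0.420 in control a to d. Every KO liver was below every control liver. The geometric mean was 0.157 in Nnmt KO and 0.309 in control mice, a log2 difference of -0.97 (SD 0.32 in KO and 0.31 in control), and it lay between -1.07 and -0.82 with any single library left out. Of all other tested genes, 1.66% had a ratio to Mat1a that was lower in every KO liver than in every control liver. These ratios are given as a description, with no test.

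The ratios of Mat1a to Mat2a, of Bhmt to Mtr and of Ahcyl1 to Ahcy overlapped between the genotypes. Their geometric means were 13.1 and 9.83 for Mat1a to Mat2a, 441 and 417 for Bhmt to Mtr, and 0.058 and 0.056 for Ahcyl1 to Ahcy, each in KO and then control. All 45 pairs of members were then compared, a step chosen after the values had been seen, and 8 pairs did not overlap. Of these, 4 held Gnmt and 4 held Ahcyl2. Pairs that share a gene are not independent. The share over all pairs of tested genes was not counted, so the 8 pairs have no background beside them.

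In the other pairs with Gnmt that did not overlap, the ratio of Gnmt to Bhmt was 0.278 to 0.331 in KO and 0.370 to 0.519 in control livers, a log2 difference of -0.42 (pooled SD 0.17). The ratio of Gnmt to Ahcy was 0.443 to 0.655 in KO and 0.659 to 1.12 in control livers (log2 difference -0.67), and that of Gnmt to Bhmt2 was 2.02 to 4.34 and 4.49 to 6.16 (log2 difference -0.69). Relative to Mat1a, Ahcy, Bhmt and Bhmt2, Gnmt was thus lower in every KO liver than in every control liver, while its own CPM overlapped between the genotypes. The ratios of Gnmt to Mat2a, Mat2b, Ahcyl1, Ahcyl2 and Mtr overlapped. Ratios to Bhmt, Ahcy and Bhmt2 that were lower in every KO liver were found for 0.196%, 0.752% and 1.55% of the other tested genes. These partners and the direction were picked with the values in view, so the shares do not measure how rare the Gnmt ratios are. Set against the summed hepatocyte markers in place of another member, Gnmt overlapped between the genotypes (log2 difference -0.64, pooled SD 0.37). The 4 pairs with Ahcyl2 were those with Mat2a, Mat2b, Ahcyl1 and Mtr, whose ratios to Ahcyl2 were lower in every KO liver, as were those of 25.2% of the other tested genes.

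**Figure D4:**
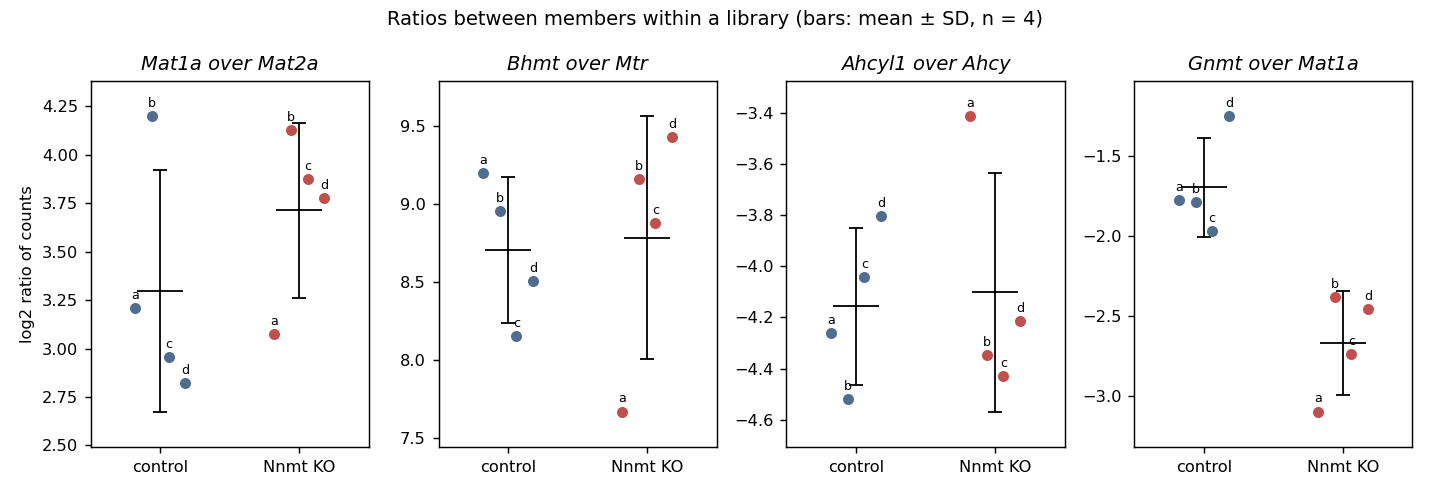
Log2 ratio of the counts of 2 members within each library (y axis, 1 panel per pair) for control and Nnmt KO mice, with letters naming the libraries and bars giving mean ± SD. For Gnmt over Mat1a the 4 KO points lie below the 4 control points (geometric means 0.157 and 0.309), and in the other 3 panels the genotypes overlap.

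The spread among mice of the same genotype differed widely from member to member. The SD of log2 CPM within a genotype was 0.64 for Gnmt, 0.52 for Bhmt, 0.47 for Mat1a and 0.40 for Ahcy, more than in 86.3%, 79.9%, 76.1% and 69.9% of all tested genes. It was 0.07 for Ahcyl2, 0.09 for Ahcyl1 and 0.11 for Mat2b, and only 1.02%, 3.11% and 6.68% of tested genes had a smaller one. Bhmt2 (0.30), Mtr (0.25) and Mat2a (0.18) lay between. A difference of the size seen for Ahcyl2 would therefore lie within the spread of Gnmt, Bhmt, Mat1a or Ahcy.

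The spread of the genes with abundant RNA followed particular livers. KO a had the lowest level of all 8 livers for Gnmt, Ahcy and Bhmt and the highest for Ahcyl2. Control b was the highest for Mat1a, Gnmt, Ahcy, Bhmt and Bhmt2, and control c the lowest for Mat1a, Bhmt2, Ahcyl1 and Ahcyl2. Together the 10 members took 0.823% of all counts in KO a and 0.866% in control c, against 1.13% to 1.37% in the other livers. The summed hepatocyte markers had their lowest values in the same livers, 70647 CPM in KO a and 90420 CPM in control c. Their highest sum, 127874 CPM, was in control b. Most of the sum was Alb (48501 CPM in KO a and 58216 CPM in control c). In KO a, Alb, Ttr, Hpx, Fgb, Apoa1 and Apoa2 were at their lowest of the 8 livers, while Apob and Tat were not. In control c, Alb and Ttr were lower than in every liver but KO a, while Fgb was at its highest. These single markers were picked with their values in view. The part of hepatocyte content in the members' values was not tested.

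**Figure D5:**
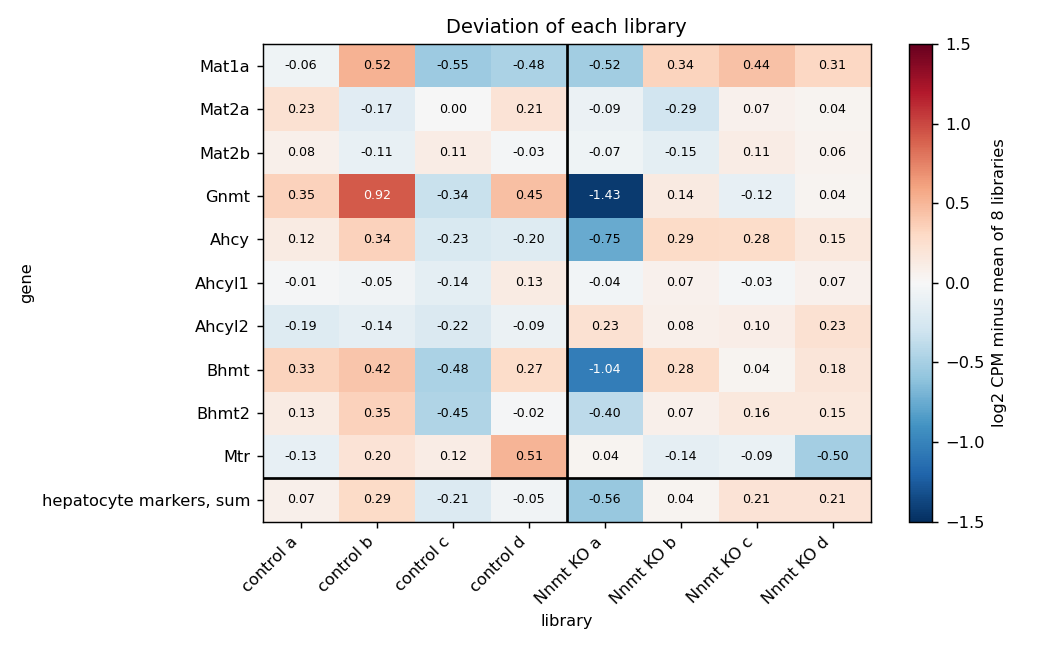
Log2 CPM of each member in each library minus its mean over the 8 libraries (colour and printed value), with the summed hepatocyte markers in the bottom row. In Nnmt KO a, Gnmt (-1.43), Bhmt (-1.04) and Ahcy (-0.75) are far below their means, as is the hepatocyte row (-0.56), while Ahcyl2 is above its mean in the 4 KO columns and below it in the 4 control columns.

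Around the cycle, 43 other genes of its inputs and exits were tested, and none passed an adjusted p of 0.05 with edgeR. At an unadjusted p under 0.05, 1 of them was higher in the KO livers and 9 were lower, with the targeted gene Nnmt among the 9. Without Nnmt, 8 of 42 were lower at this limit. The shares over all tested genes were 5.45% higher and 7.13% lower. DESeq2 called 2 of the 43 at an adjusted p of 0.05, Nnmt and Slc3a2, against 3.46% of the genes it tested. With Nnmt left out, the median log2 fold change of the pathway genes was -0.10, beside 0.02 for all tested genes. On the folate side, which hands its methyl group to Mtr, 2 of 8 genes lay above 0 and 6 below.

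Among 5 genes that bring or remove betaine and dimethylglycine, Slc6a12, a betaine carrier, had the smallest p, with 109.9 ± 19.8 CPM in KO and 158 ± 38.9 CPM in control mice (log2 fold change -0.53, adjusted p = 0.271). Cth, an enzyme of the route from homocysteine to cysteine, differed by 0.11 on the log2 scale (standard error 0.29, adjusted p = 0.906). Of the 8 genes of polyamine synthesis and methionine salvage, Mri1, a salvage isomerase, had the smallest p (18.7 ± 0.782 CPM in KO and 25.5 ± 4.95 CPM in control, adjusted p = 0.198). It was lower in every KO liver than in every control liver, as were 4.81% of all tested genes. Nt5e, which makes adenosine from AMP, was the 1 gene with a positive value at an unadjusted p under 0.05 (log2 fold change 0.47, adjusted p = 0.239).

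Slc3a2, a subunit of amino acid carriers that take up methionine, stood at 106, 80.9, 126 and 95.5 CPM in the KO libraries and at 154, 148, 159 and 127 CPM in the control libraries. All KO livers were below all control livers, by a narrow margin between KO c and control d. Without Nnmt, this held for 3 of the 42 pathway genes, beside 4.81% of all tested genes. The difference on the log2 scale was -0.53 (standard error 0.14), and the adjusted p was 0.142 with edgeR and 0.0276 with DESeq2. Mettl16, which methylates Mat2a RNA and acts on its splicing, had 16.2 ± 2.13 CPM in KO and 21.1 ± 3.86 CPM in control mice (log2 fold change -0.38, adjusted p = 0.316). The groups overlapped, and Mat2a itself had the log2 fold change of -0.14 given above.

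Across the 8 livers, the genes whose pattern was most like that of Ahcyl2 were Ccdc8, Mirg and Smpdl3a, with a root mean square difference of 0.093, 0.198 and 0.236 between log2 CPM values centred and scaled to unit SD. The closest to Mtr were Nup98, Rnf144b and Slc36a1, with 0.172, 0.240 and 0.317. These are descriptions over 8 libraries chosen from 15291 genes. Scaling leaves out the level of a gene and the size of its change. Mean levels in KO and control mice were 1.53 and 0.885 CPM for Ccdc8, 0.513 and 0.170 CPM for Mirg, and 57.2 and 45.5 CPM for Smpdl3a. Their log2 fold changes were 0.79, 1.59 and 0.33, beside 0.32 for Ahcyl2.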

How the data were processed

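Liver RNA-seq of 4 Nnmt KO mice and 4 control mice on the MCD diet was used. The authors aligned and quantified paired-end reads with HISAT2, as the study's methods state, and the submitters' processing notes also list StringTie and the build mm10. The authors deposited the counts as whole numbers and did not normalize them. Of 33212 genes, 12414 were at 0 throughout. The library kit is KAPA RNA HyperPrep in the methods and NEBNext Ultra in the labels, and strand is not given in the sources used here, so reads of overlapping genes (Bhmt with Gm15622, Gnmt with Gm26904, both on the opposite strand) and of similar genes could have been assigned otherwise. Gm15622 had 218 counts over the 8 libraries and Gm26904 had 0. Number of count columns left out: 0. The columns give only the genotype of a mouse, so libraries were lettered by column order and not paired. Libraries of the same genotype differed far beyond counting noise (chi-square per degree of freedom 39.9 to 248), and each was 1 replicate.

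Low counts were filtered with filterByExpr (minimum count 10), and 15291 genes remained. TMM normalization, the quasi-likelihood test and Benjamini-Hochberg adjustment over these genes used edgeR 4.0.16 (R 4.3.3), with 95% intervals. Log2 CPM used a prior count of 2. DESeq2 1.42.0, DESeq2's size factors, library size only, no filter and each library left out in turn were alternatives. The script was tested on simulated counts. Genes were positioned in GENCODE M21 of GRCm38 by identifier, which held 99.1% of the tested genes, and promoter sequences came from RefSeq (GRCm38.p6). Promoters that lie largely within exons annotated by GENCODE were not printed. At this depth 3 counts stand for at most 0.04 CPM.

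The text names all 10 members, Nnmt, the pathway genes that passed the test or had the smallest p in their list, and the 3 genes most like each of the 2 members with the smallest p. Some genes that meet this rule are not reported here. Where another gene is named, the text says that it was picked with its values in view. The members, pathway lists and marker lists were chosen with earlier results of these data known. Marker lists for macrophages, endothelial cells, neutrophils and adipocytes were also summed. Their ranges in Nnmt KO and control mice were 524 to 699 and 354 to 673 CPM for macrophages, 191 to 219 and 149 to 288 CPM for endothelial cells, and 5.10 to 15.6 and 5.56 to 14.4 CPM for neutrophils, in which Ly6g had 0 counts. Adipocyte markers reached at most 0.205 CPM, with 3 of 4 at 0 in every library, and the macrophage marker Adgre1 was not found by symbol.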

Additional observations from a re-analysis of the deposited data

Results flagged for a closer look

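Levels in groups of 4 libraries were checked for 1 library far from the other 3 (by the gap to the nearest library over the group's range, against Dixon's critical value). Of 36 groups checked, chance would give about 1.8 and 3 were found, all of them in Nnmt KO library a. Ahcy stood at 890 CPM there, against 1667 to 1825 CPM in the other KO livers (gap over range 0.831). The 10 members together took 0.823% of its counts, against 1.24% to 1.31% (0.848). Its TMM factor was 1.21, against 0.952 to 0.977 (0.903). The stellate cell and fibroblast markers (827 CPM) and cholangiocyte markers (279 CPM) had their highest sums of the 8 livers in the same library, and the part of cell makeup in these values was not tested.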

How the results depend on the processing

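Of the 10 members, 6 kept the direction of their log2 fold change in all 12 alternatives, and none of the 10 passed an adjusted p of 0.05 in any. The 4 that changed sign lay near 0. With library size only, which moved the median of all genes by 0.06 on the log2 scale, Mat2b was at 0.025 and Bhmt2 at 0.035. With 1 library left out, Mat2b ran from -0.065 to 0.020, Ahcy from -0.068 to 0.21, Ahcyl1 from -0.0040 to 0.087 and Bhmt2 from -0.15 to 0.12. The median over the members ran from -0.10 to 0.03. Members at an unadjusted p under 0.05 numbered 1, and 2 with library size only, 2 with DESeq2's test (Gnmt beside Ahcyl2 in both), and 1 to 2 with 1 library left out, where the shares over all tested genes were 12.6%, 9.40%, 14.2% and 8.08% to 14.1%. Mtr joined without KO a or control a, Mat1a without control b and Gnmt without control c. Members that did not overlap numbered 1 to 2 on leaving 1 library out, with Mtr added without control a and Gnmt without control c, against 9.57% and 14.3% of all tested genes. Pathway genes at an adjusted p under 0.05 numbered 0, 2 with DESeq2's test (Nnmt and Slc3a2) and 0 with any 1 library left out. Nnmt was at -1.28 with DESeq2's test (adjusted p = 0.00467) and between -1.52 and -0.94 with 1 library left out, where control b moved it most. Over all genes edgeR called 49, DESeq2 508, edgeR with DESeq2's size factors 30, with library size only 22 and without a filter 8, and leaving 1 library out gave 6 to 149. Whether depth limits Mtr, the member with the fewest counts, was not tested. Per kilobase of the longest transcript, control levels were 133 CPM for Mat2a, 13.6 for Mat2b, 21.9 for Ahcyl1, 2.70 for Ahcyl2 and 831 for Bhmt. No paired analysis was possible because the columns of the count table carry no mouse numbers.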

Other observations

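Methyltransferases that share S-adenosylmethionine with Gnmt and Nnmt were listed as a group of 8 with Nnmt itself, of which 2 had a log2 fold change above 0 and 6 below, with 0 at an adjusted p under 0.05 in edgeR's test. At an unadjusted p under 0.05 there were 3, Nnmt among them, all with values below 0. At this limit 7.13% of all tested genes were lower in Nnmt KO mice. Gamt, which makes creatine by methylation of guanidinoacetate, had 60.1 ± 18.9 CPM in Nnmt KO and 105 ± 29.0 CPM in control mice (SD, n = 4), a log2 fold change of -0.80 (adjusted p = 0.218), and its libraries overlapped. Pemt, which makes phosphatidylcholine by methylation of phosphatidylethanolamine, had a log2 fold change of -0.18 (adjusted p = 0.768). Gamt and Pemt were picked with their values in view.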
